A study of Mus musculus with 6 samples.

Results

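A group of 10 imprinted genes whose loci are known to carry CTCF and cohesin (H19, Igf2, Igf2r, Cdkn1c, Peg3, Meg3, Grb10, Plagl1, Dlk1 and Impact) was followed in mouse bone marrow cells with Rad21 knocked down. Rad21 is the kleisin subunit that closes the cohesin ring. Every probe set annotated to exactly 1 of these genes was taken. This gave 20 probe sets of 9 genes, out of 22626 probe sets and 12393 genes in all. H19, the non-coding RNA made beside Igf2, had 0 probe sets of its own and 1 annotated also to Mir675, the microRNA it hosts, and was therefore skipped.

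Expression was measured on 6 Affymetrix arrays, 2 from cells infected with lentivirus carrying Rad21 shRNA1, 2 with Rad21 shRNA2 and 2 with the empty vector. All 3 groups came from lineage-depleted marrow (C57/BL6 animals, 6 to 8 weeks of age), infected for 24 h, selected with puromycin at 1 µg/mL, sorted for live cells, and plated at 10000 cells per mL in methylcellulose with cytokines. RNA was taken after 7 days, so each array holds the mixed progeny of the plated cells. The labels name no unrelated shRNA in the controls. Levels are log2 of the deposited intensity, and a difference is shRNA minus empty vector.

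An imprinted gene is expressed mainly from the copy inherited from 1 parent. The choice is set by a control region that is DNA-methylated on only 1 parental chromosome. At the Igf2 and H19 locus CTCF binds the unmethylated region and blocks distant enhancers, and cohesin sits at many CTCF sites and holds chromatin loops. Several of these genes, among them Igf2, H19, Cdkn1c, Meg3 and Dlk1, are known from mouse blood stem cells and growth control. The arrays measure the RNA of both copies together and do not tell the parental alleles apart.

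The arrays carried the blood signal their label names. The pan-leukocyte gene Ptprc stood at 12.01 to 12.12 on the shRNA arrays and at 11.66 and 11.97 on the empty-vector arrays. Rad21 itself, on its brightest probe set, was at 43.8% and 31.2% in shRNA1 cells and 40.2% and 30.6% in shRNA2 cells, against 125% and 79.8% in empty-vector cells, taken relative to the geometric mean of the controls. Its probe set 1455938_x_at read 23.5% to 33.2% on the shRNA arrays, against 160% and 62.4%. On 1416162_at the groups overlapped, at 58.1% to 97.9% against 84.2% and 119%. For both shRNAs none passed the threshold given below (limma adjusted p = 0.0835, 0.128 and 0.540 in this order). Empty-vector replicate 1 stood apart from the rest. The 3′ Gapdh control probe set minus the 5′ one gave -0.078 to -0.056 on the shRNA arrays, against 2.42 and 0.017 on empty-vector replicates 1 and 2. The mean level of the erythroid marker list was 6.35 to 6.95 on the shRNA arrays, against 9.12 and 7.18 on empty-vector replicates 1 and 2. The arrays lay 0.154 from their group mean with shRNA1 and 0.146 with shRNA2, against 0.338 with the empty vector (root mean square over probe sets). Whether the replicates are separate cultures or animals is not labelled, and the p-values therefore reflect the array-to-array spread alone, which may be technical.

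None of the 20 probe sets passed the threshold, an adjusted p below 0.05 by limma with Benjamini-Hochberg adjustment over all probe sets. For both shRNAs together 0 of 20 passed, against 0.844% of all probe sets, and 2 of 20, or 10%, had an unadjusted p under 0.05, against 15.2% of all. For shRNA1 alone 0 passed, against 0.0486% of all probe sets, and for shRNA2 alone 0 passed, against 1.46%. Each of these contrasts had 2 members, or 10%, at an unadjusted p under 0.05, against 8.15% of all probe sets for shRNA1 and 16.0% for shRNA2, and all contrasts with the empty vector share the same 2 control arrays. For shRNA1 minus shRNA2 0 of 20 passed, against 0.0% of all probe sets, with 0 members and 4.25% of all at an unadjusted p under 0.05.

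With all 6 arrays the member probe sets leaned to negative differences by small amounts. Of the 20 probe sets 16 were below 0, with a median of -0.088, against 11859 of 22626 and a median of -0.015 over all. Probe sets of 1 gene are not independent, and 5 were of Meg3 and 3 each of Peg3 and Grb10. On the brightest probe set of each gene, Igf2, Dlk1 and Impact were above 0 and the rest below. On 4 of the 20 all 4 shRNA arrays lay below both empty-vector arrays, which held for 12.6% of all probe sets. On 0 of the 20 they lay above both, which held for 11.7% of all. These 4 belong to Igf2r, Cdkn1c, Igf2 and Peg3, the last 2 among dim probe sets. On 17 of the 20 probe sets empty-vector replicate 1 was higher than replicate 2, as on 56.7% of all probe sets and 66.9% of the dimmer 50% of them. Part of the lean depended on that array. Without it, Meg3 1426758_s_at turned to 0.11, Grb10 1425457_a_at and Plagl1 1426208_x_at to 0.20 and Peg3 1433924_at to 0.11. Impact turned to -0.070, and Igf2r and Cdkn1c stayed below 0. In bulk RNA of a mixed culture, fewer cells of a type and less RNA per cell cannot be told apart.

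**Figure D1:**
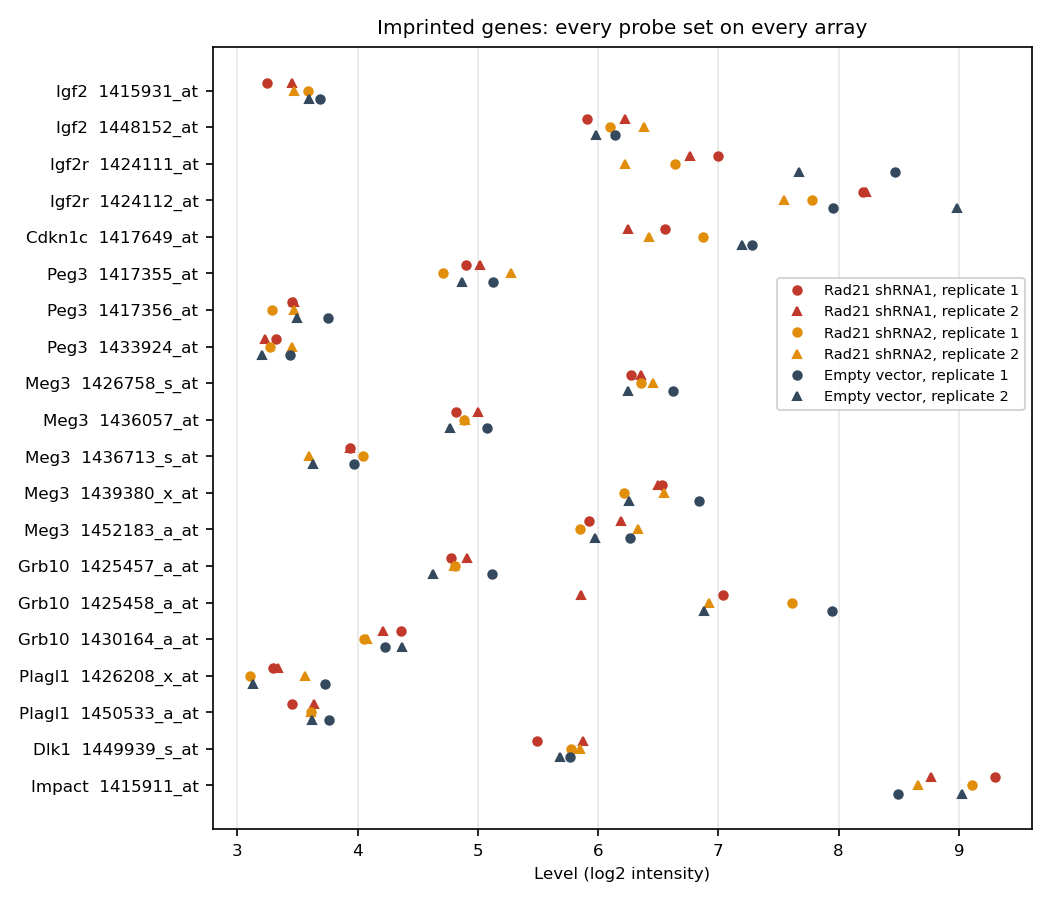
Level of each of the 20 probe sets on each array (log2 intensity, horizontal axis), in red for Rad21 shRNA1, orange for Rad21 shRNA2 and dark blue for the empty vector, with circles for replicate 1 and triangles for replicate 2. Igf2r 1424111_at and Cdkn1c show all shRNA arrays left of both empty-vector arrays with a visible gap, and most of the other probe sets show the groups mixed.

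Most of the members gave dim signals, which rank probe sets by brightness and not genes by RNA amount. Of the 20 probe sets, 15 lay in the dimmer 50% of the array and 7 in the dimmest 25%, where RMA compresses differences. On 16 probe sets the 6 arrays spanned 0.25 to 0.80. Their differences ran from -0.20 to 0.20, with 95% confidence bounds from -0.67 to 0.83 and adjusted p of 0.542 or more. The 4 probe sets that spanned 1 log2 unit or more, a range that 25.7% of all probe sets reached, belonged to Igf2r, Cdkn1c and Grb10.

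Igf2 encodes a fetal growth factor that is expressed from the paternal copy. Its brighter probe set, 1448152_at, was at 5.91 and 6.23 in shRNA1 cells and 6.10 and 6.38 in shRNA2 cells, against 6.14 and 5.98 in empty-vector cells. The groups overlapped, and the difference was 0.093 ± 0.17 (SE; adjusted p = 0.846, 95% interval -0.32 to 0.51). The other, 1415931_at, was dimmer than all but 7.89% of probe sets. It was at 3.25 and 3.46 in shRNA1 cells and 3.59 and 3.47 in shRNA2 cells, against 3.69 and 3.59 in empty-vector cells. Its shRNA arrays lay below both controls, by only 0.0049 at the closest pair, with a difference of -0.20 ± 0.13 (adjusted p = 0.542).

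Igf2r encodes the receptor that carries IGF2 and mannose-6-phosphate-tagged enzymes to lysosomes, and in mice it is expressed from the maternal copy. It held the most negative difference of the members. Probe set 1424111_at was at 7.00 and 6.77 in shRNA1 cells and 6.64 and 6.23 in shRNA2 cells, against 8.47 and 7.67 in empty-vector cells. Every shRNA array was below both empty-vector arrays, by 0.67 at the closest pair. The difference was -1.41 ± 0.27, a level of 37.7% of the empty vector, and did not pass over all probe sets (limma adjusted p = 0.0957, 95% interval -2.07 to -0.75). For shRNA1 it was -1.18 ± 0.31 (adjusted p = 0.371) and for shRNA2 -1.63 ± 0.31 (adjusted p = 0.0824). The shRNAs differed from each other by 0.45 ± 0.31, which did not pass.

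The brighter Igf2r probe set, 1424112_at, gave another picture of the controls. It was at 8.20 and 8.22 in shRNA1 cells and 7.78 and 7.55 in shRNA2 cells, against 7.96 and 8.98 in empty-vector cells. Here the shRNA1 arrays lay between the empty-vector arrays, while both shRNA2 arrays lay below them. The difference was -0.53 ± 0.30 (adjusted p = 0.465, 95% interval -1.27 to 0.20). Between the empty-vector arrays, replicate 1 was above replicate 2 by 0.80 on 1424111_at and below it by 1.03 on 1424112_at, so the 2 probe sets of 1 gene ordered the control arrays in opposite ways. Without empty-vector replicate 1, the array whose Gapdh 3′ control stood far above the 5′ one, the differences were -1.01 on 1424111_at and -1.05 on 1424112_at. Without empty-vector replicate 2 they were -1.81 and -0.019. The part of RNA quality in this disagreement was not tested.

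With the 2 Igf2r probe sets averaged on each array, a step added after their values had been seen, Igf2r was at 7.60 and 7.50 in shRNA1 cells and 7.21 and 6.89 in shRNA2 cells, against 8.21 and 8.33 in empty-vector cells. The opposite control deviations cancel in this mean, and the groups did not overlap, as on 1424111_at alone. The SE falls from 0.27 and 0.30 on the 2 probe sets. This SE and its p do not account for choosing the step after those deviations had been seen. The difference was then -0.97 ± 0.14 and passed over the 12393 genes averaged the same way (limma adjusted p = 0.0374), of which 1.86% passed. For shRNA2 alone it was -1.22 ± 0.16 (adjusted p = 0.0266), where 2.7% of genes passed, and for shRNA1 -0.72 ± 0.16 (adjusted p = 0.229). The averaged difference for both shRNAs was -1.03 without empty-vector replicate 1 and -0.91 without replicate 2. It did not pass once 1 shRNA array was dropped, whichever it was. The adjusted p was then 0.166 (shRNA1 replicate 1), 0.124 (shRNA1 replicate 2), 0.131 (shRNA2 replicate 1) or 0.164 (shRNA2 replicate 2).

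Airn, a non-coding RNA that starts in an intron of Igf2r on the other strand and silences the paternal Igf2r copy in mice, was measured by 1451634_at. It was at 5.08 and 5.35 in shRNA1 cells and 4.77 and 4.72 in shRNA2 cells, against 5.65 and 5.70 in empty-vector cells. Its groups did not overlap, and its empty-vector arrays differed by only 0.052. The difference was -0.70 ± 0.14 and did not pass (adjusted p = 0.102). With any 1 array left out it ran from -0.76 to -0.63. Airn overlaps the start of Igf2r, and probe positions were not used here, so the assignment rests on the platform annotation. On the other side of Igf2r, the organic cation transporter Slc22a2, which is imprinted in mouse placenta, differed by -0.11 (adjusted p = 0.834).

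The sequence before the Igf2r start is shown because Igf2r had the most negative difference here, and those before the 2 Grb10 starts because they differ in CpG content, the dinucleotide that imprinting methylates. Each is the 250 bases upstream of a RefSeq transcription start on mouse build GRCm38.p6, 5′ to 3′ on the gene's strand, with CpG in capitals. They lie at chr17:12769707-12769956 on the minus strand for Igf2r, and on the minus strand at chr11:12037421-12037670 and chr11:12027972-12028221 for the upstream and the downstream start of Grb10.
Igf2r: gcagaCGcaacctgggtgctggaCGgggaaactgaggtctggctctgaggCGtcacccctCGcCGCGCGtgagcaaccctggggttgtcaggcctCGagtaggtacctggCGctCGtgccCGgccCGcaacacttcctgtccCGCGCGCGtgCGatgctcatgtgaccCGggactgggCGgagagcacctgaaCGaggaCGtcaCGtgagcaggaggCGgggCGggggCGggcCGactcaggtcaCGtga
Grb10 upstream start: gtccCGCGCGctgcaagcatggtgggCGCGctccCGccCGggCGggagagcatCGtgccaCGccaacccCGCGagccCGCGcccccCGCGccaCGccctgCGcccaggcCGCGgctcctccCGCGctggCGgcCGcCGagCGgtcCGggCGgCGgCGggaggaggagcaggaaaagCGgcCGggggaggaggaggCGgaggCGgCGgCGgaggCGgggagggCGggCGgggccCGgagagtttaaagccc
Grb10 downstream start: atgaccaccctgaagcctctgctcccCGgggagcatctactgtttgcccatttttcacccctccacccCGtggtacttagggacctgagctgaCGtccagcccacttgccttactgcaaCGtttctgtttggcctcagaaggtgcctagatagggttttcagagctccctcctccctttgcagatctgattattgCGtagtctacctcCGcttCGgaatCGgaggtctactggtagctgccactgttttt
The Igf2r window holds 27 CpG, at least as many as 92.4% of the 32851 promoters in the RefSeq table. The upstream Grb10 window holds 40, at least as many as 98.9%, and the downstream one 8, against a median of 6 over the table.

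In all, 12 such windows of 7 members were matched by symbol. The core of the CTCF motif, CCNNNAGGG on either strand, was in 0 of the 12 and in 18.5% of all windows. The palindrome GGGGCCCC, part of the motif of the zinc finger factor Plagl1, was in 1 of the 12, that of Peg3, and in 0.889% of all. A match or its lack describes these letters in these windows only.

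Cdkn1c encodes p57Kip2, an inhibitor of cyclin-dependent kinases that helps keep blood stem cells quiescent, and is expressed from the maternal copy. Its 1 probe set, 1417649_at, was at 6.55 and 6.25 in shRNA1 cells and 6.87 and 6.42 in shRNA2 cells, against 7.28 and 7.19 in empty-vector cells. All 4 shRNA arrays were below both empty-vector arrays, which lay only 0.083 from each other, and the gap between the groups was 0.32 at its narrowest. The difference was -0.71 ± 0.18, a level of 61.1% of the empty vector, and did not pass (adjusted p = 0.170, 95% interval -1.17 to -0.25). It was -0.83 ± 0.21 for shRNA1 (adjusted p = 0.358) and -0.59 ± 0.21 for shRNA2 (adjusted p = 0.265). With any 1 array left out it ran from -0.82 to -0.60 and did not pass (adjusted p 0.0689 to 0.440).

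Phlda2, a growth-restraining pleckstrin homology gene that shares the Cdkn1c control region, was at 5.17 and 5.56 in shRNA1 cells and 5.22 and 5.48 in shRNA2 cells, against 6.35 and 6.05 in empty-vector cells. Its groups did not overlap either. Its difference of -0.84 ± 0.19 did not pass (adjusted p = 0.126). With any 1 array left out it ran from -0.996 to -0.694. Other genes near Cdkn1c were mixed, and none passed by limma. Tssc4 differed by -0.47 ± 0.30 and Tspan32 by 0.83 ± 0.13. Slc22a18, which stands between Cdkn1c and Phlda2, differed by -0.19 ± 0.16, the histone chaperone gene Nap1l4 on the far side by 0.099 ± 0.12, and the potassium channel gene Kcnq1 by 0.054 ± 0.14.

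**Figure D2:**
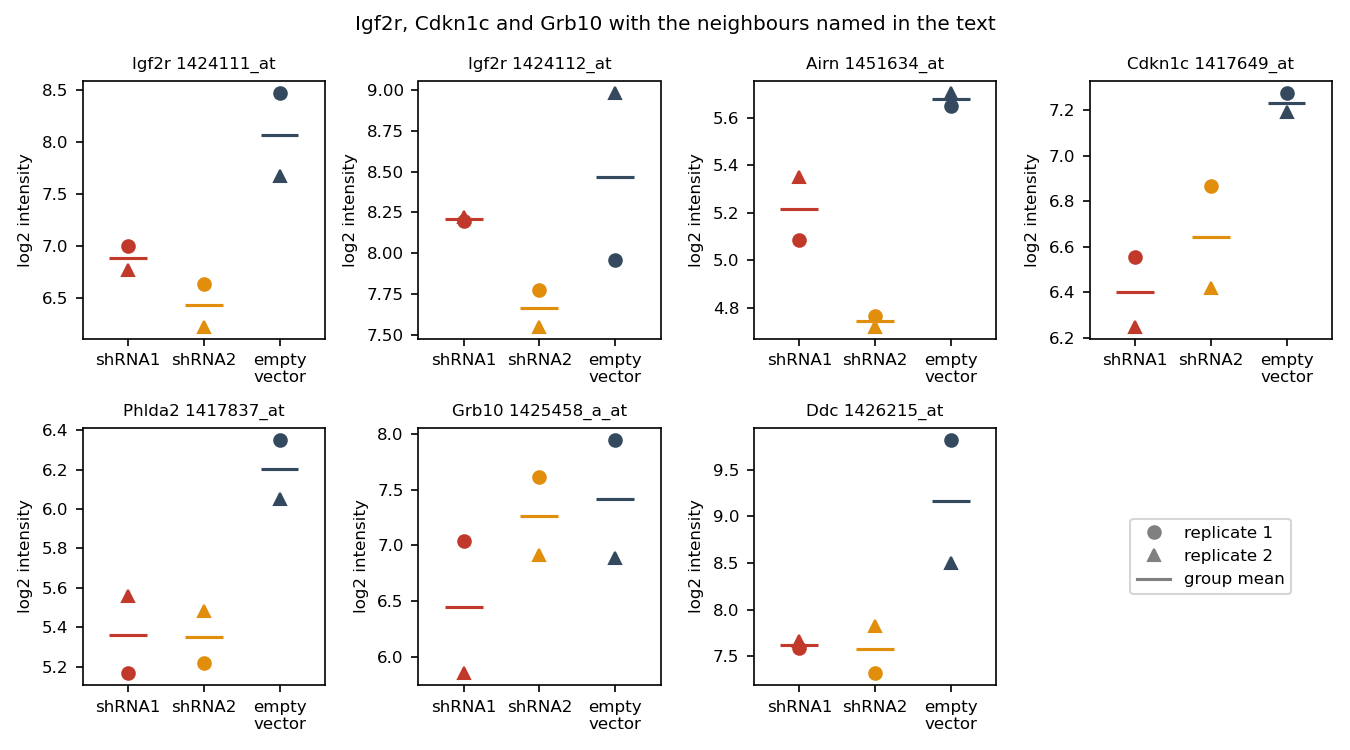
Level on each array (log2 intensity, vertical axes with different ranges that do not start at 0) of the Igf2r, Cdkn1c and Grb10 probe sets that spanned 1 log2 unit or more and of the neighbours Airn, Phlda2 and Ddc, for shRNA1, shRNA2 and the empty vector. Points are arrays and horizontal lines group means. The empty-vector arrays are ordered in opposite ways on the 2 Igf2r probe sets and nearly coincide for Airn.

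Grb10 encodes an adaptor that restrains insulin and IGF1 receptor signalling, and is maternally expressed in most mouse tissues. Its brightest probe set, 1425458_a_at, spanned 2.09 over the 6 arrays. It was at 7.04 and 5.86 in shRNA1 cells and 7.61 and 6.92 in shRNA2 cells, against 7.95 and 6.88 in empty-vector cells. Within each group replicate 1 was above replicate 2, and the groups overlapped. The difference was -0.56 ± 0.46 (adjusted p = 0.628, 95% interval -1.71 to 0.59). It was -0.027 without empty-vector replicate 1 and -1.09 without replicate 2, and passed in neither case. The dimmer probe sets 1425457_a_at and 1430164_a_at differed by -0.048 ± 0.18 and -0.12 ± 0.13.

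Ddc, the DOPA decarboxylase gene that neighbours Grb10 and is imprinted with it in the mouse heart, was at 7.59 and 7.66 in shRNA1 cells and 7.32 and 7.83 in shRNA2 cells, against 9.82 and 8.50 in empty-vector cells. Its groups did not overlap, but its empty-vector arrays were 1.32 apart. The difference of -1.56 ± 0.38 did not pass (adjusted p = 0.156), and was -0.90 without empty-vector replicate 1 and -2.22 without replicate 2.

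**Figure D3:**
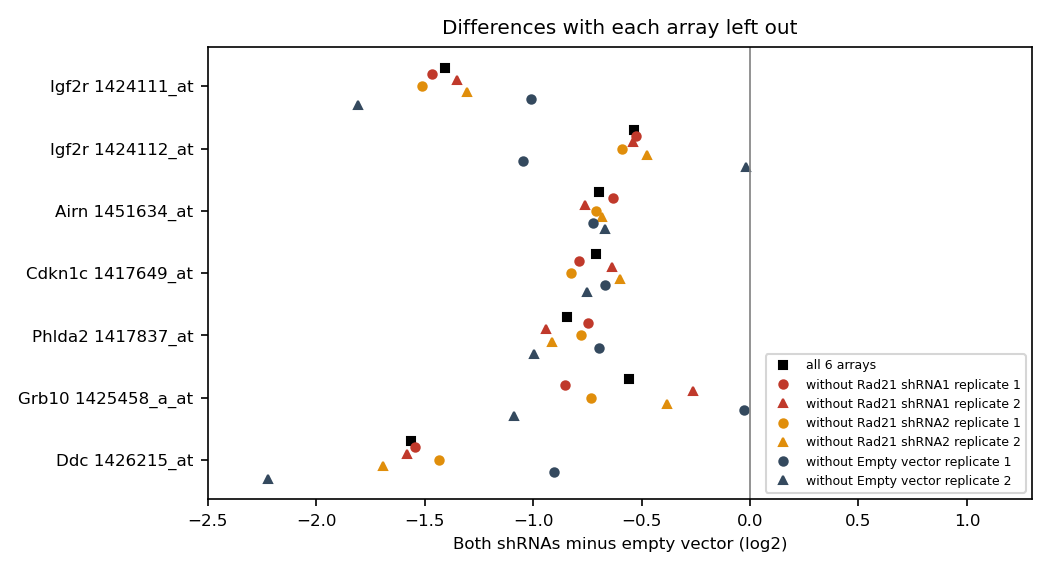
Difference of both shRNAs minus empty vector (log2, horizontal axis) for the members and neighbours with the widest spread, with all 6 arrays (black squares) and with each array left out in turn. Leaving out an empty-vector array, in dark blue, moved Igf2r, Grb10 and Ddc further than leaving out any shRNA array, while Airn and Cdkn1c stayed between -0.82 and -0.60.

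Plagl1 and Peg3 encode zinc finger proteins made from the paternal copy, and Plagl1 is known to act on a network of other imprinted genes. Both were dim. The 2 Plagl1 probe sets read 3.11 to 3.64 on the shRNA arrays and 3.13 to 3.76 on the empty-vector arrays, with differences of -0.11 ± 0.13 and -0.10 ± 0.23. The 3 Peg3 probe sets differed by -0.20 to -0.0013 (adjusted p 0.557 to 0.998). The most negative, 1417356_at, was at 3.46 and 3.47 in shRNA1 cells and 3.29 and 3.47 in shRNA2 cells, against 3.75 and 3.50 in empty-vector cells, so its groups lay 0.027 apart at the closest pair. Usp29 and Zim1, imprinted with Peg3, differed by -0.048 and -0.091.

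Meg3, a maternally expressed non-coding RNA, and Dlk1, a Notch-ligand-like membrane protein made from the paternal copy, share 1 domain. The 5 Meg3 probe sets were within 3.60 to 6.84 on all arrays, and their groups overlapped. Their differences ran from -0.097 to 0.079 (adjusted p 0.863 to 0.962), 4 of the 5 below 0. Dlk1 was at 5.49 and 5.87 in shRNA1 cells and 5.77 and 5.85 in shRNA2 cells, against 5.76 and 5.69 in empty-vector cells, a difference of 0.024 ± 0.15 (adjusted p = 0.963). Rian, the non-coding RNA that follows Meg3, differed by -0.16 ± 0.16 (adjusted p = 0.695). The 95% interval of Dlk1 was -0.36 to 0.41, and the widest bounds of the 5 Meg3 intervals were -0.62 and 0.55.

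Impact, a paternally expressed inhibitor of the stress kinase Gcn2, gave the brightest signal of the member probe sets, above 78.6% of all. It was at 9.30 and 8.77 in shRNA1 cells and 9.11 and 8.66 in shRNA2 cells, against 8.50 and 9.03 in empty-vector cells. The groups overlapped, and empty-vector replicate 1 was the lowest array. The difference was 0.20 ± 0.25 (adjusted p = 0.776), and it turned to -0.070 without empty-vector replicate 1.

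**Figure D4:**
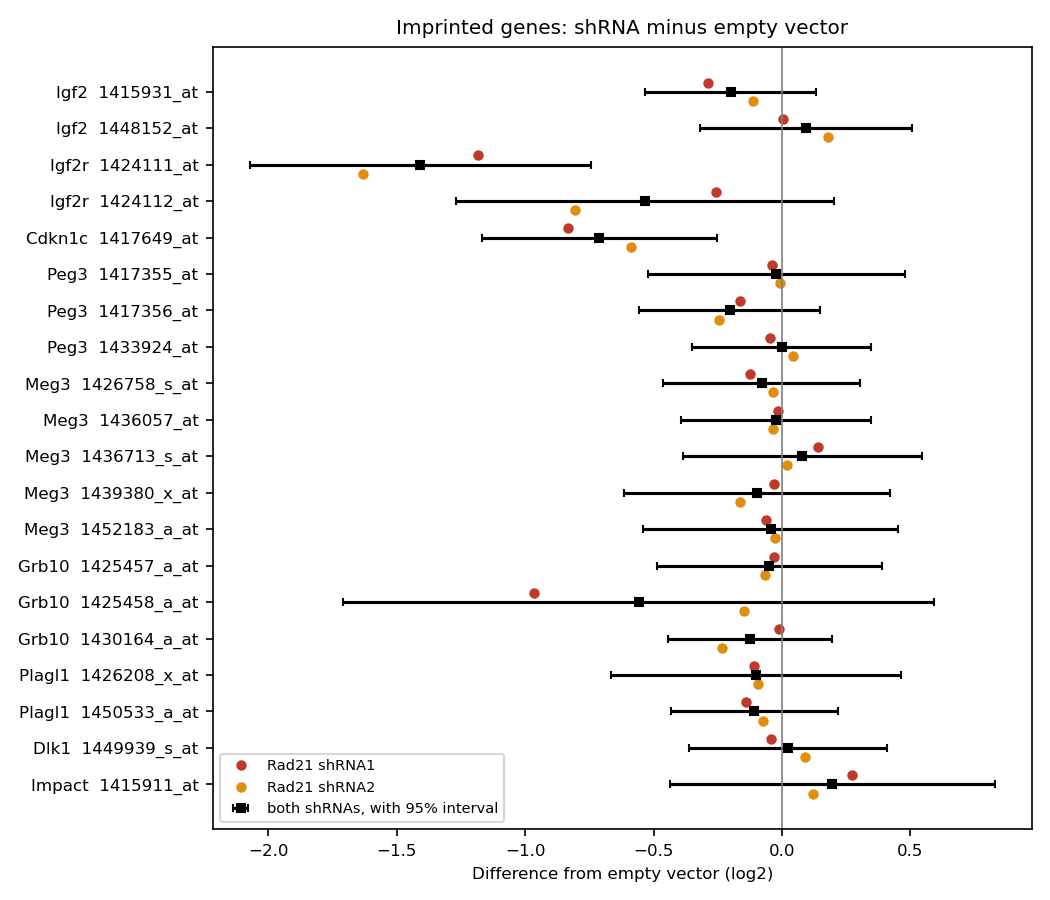
Difference from the empty vector (log2, horizontal axis) of each probe set, for shRNA1 (red), shRNA2 (orange) and both shRNAs (black squares with the 95% confidence interval of the fit). Only the unadjusted intervals of Igf2r 1424111_at and Cdkn1c lie wholly below 0, and no interval lies wholly above 0.

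Around the members, the 3 nearest measured genes on each side were taken by RefSeq order, 48 distinct genes that are no members. By limma 0 of them rose and 0 fell, against 1.09% of all genes on their brightest probe set. Of the 48 genes 6 had an unadjusted p under 0.05, a cut that 15.2% of all probe sets met. Their median difference was -0.022, against -0.023 over all genes, and 27 were below 0. The 6 were Airn, Phlda2, Ddc, the tryptophanyl-tRNA synthetase gene Wars (-0.44 ± 0.14), the splicing factor gene Sf3b5 (0.48 ± 0.13) and the dynein heavy chain gene Dync1h1 (-0.56 ± 0.22), named after their values were seen.

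**Figure D5:**
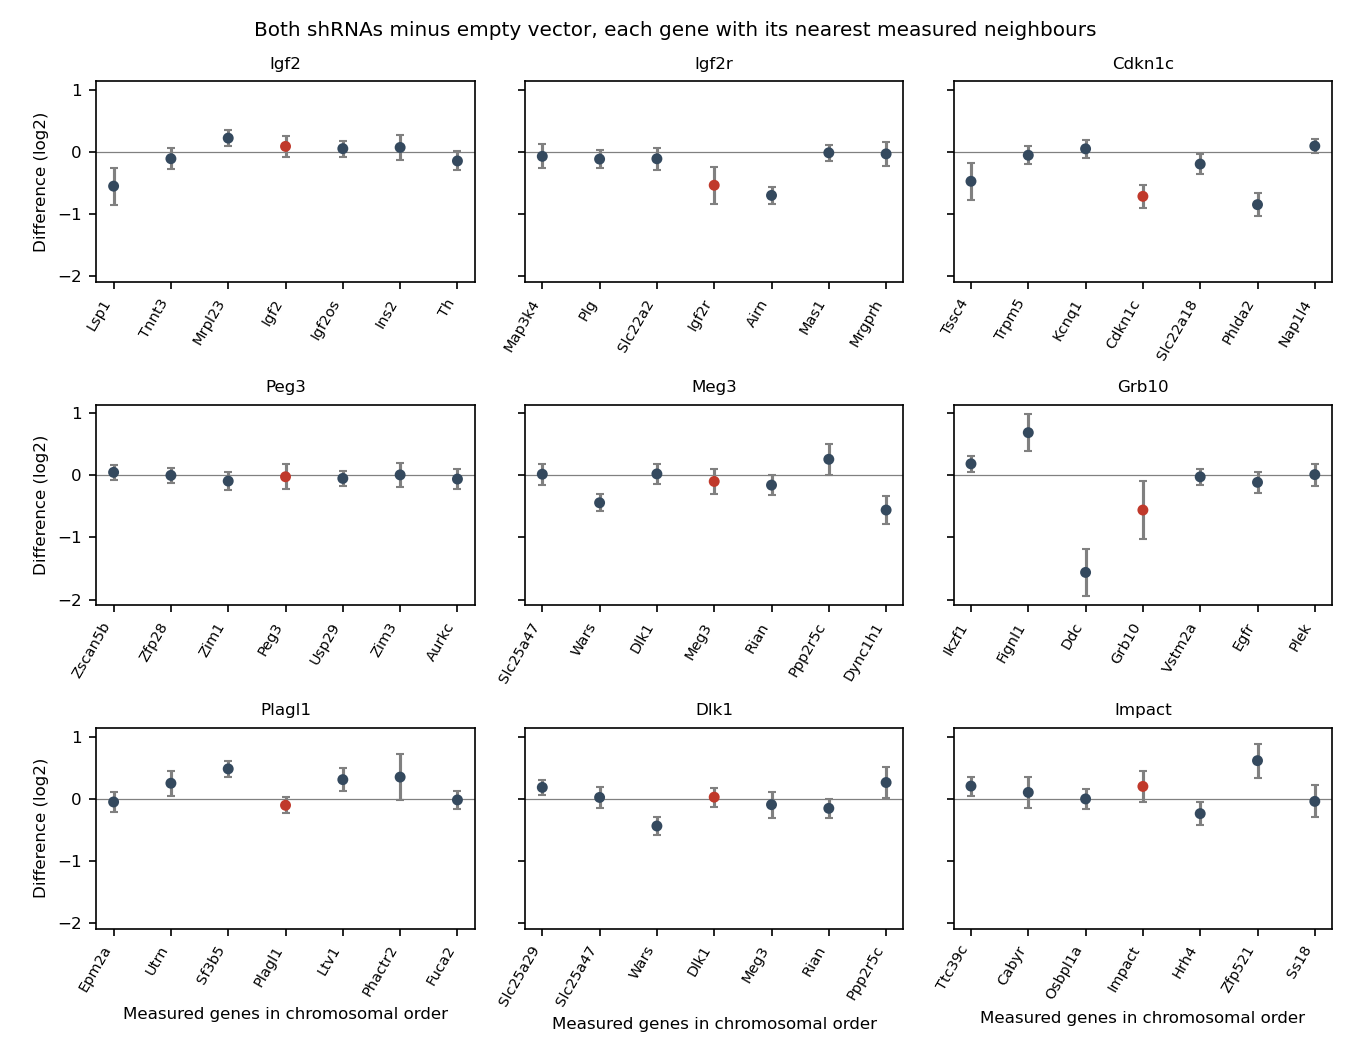
Difference of both shRNAs minus empty vector (log2, vertical axis, bars are SE) for each member on its brightest probe set (red) and its nearest measured genes (dark blue) in chromosomal order, not to scale along the chromosome. Negative differences beyond -0.5 stand beside differences near 0 in the Igf2, Igf2r, Cdkn1c, Meg3 and Grb10 panels.

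Gene lists of the same biology were read on the brightest probe set of each gene, against the 1.09% of all genes that passed. Among 21 measured imprinted neighbours in the members' domains none rose or fell by limma. An unadjusted p under 0.05 was seen for 6, against 15.2% of all probe sets. Of the differences 16 were negative, and the median was -0.14. The smallest p was that of Tspan32, a tetraspanin gene of blood cells, which was at 9.91 and 9.99 in shRNA1 cells and 10.13 and 10.19 in shRNA2 cells, against 9.13 and 9.31 in empty-vector cells. It was higher on every shRNA array, by 0.83 ± 0.13 (adjusted p = 0.0648, and 0.0443 when each gene entered the fit with 1 probe set). With any 1 array left out the difference ran from 0.74 to 0.92. Among 26 measured imprinted genes of other domains none passed by limma, and the median was -0.028. An unadjusted p under 0.05, met by 15.2% of all probe sets, was seen for 3 of the 26. Of these Blcap, which shares the Nnat locus, differed by -0.73 ± 0.16 (adjusted p = 0.126), and by -0.91 to -0.54 with 1 array left out. Asb4, a substrate adaptor of ubiquitin ligases, differed by -1.39 ± 0.32 (adjusted p = 0.140), and by -1.89 to -0.90 with 1 array left out.

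Of 15 measured genes of imprint maintenance and DNA methylation, 1 rose. This was Dnmt3l, the catalytically inactive partner of the de novo methyltransferases that sets imprints in germ cells, at 7.50 and 7.24 in shRNA1 cells and 7.47 and 7.57 in shRNA2 cells, against 6.18 and 6.27 in empty-vector cells. Its difference was 1.22 ± 0.14 (limma adjusted p = 0.0348), and the call was lost whichever shRNA array was dropped (adjusted p 0.110 to 0.213). The list median was 0.010. In the IGF list, 0 of 15 rose or fell by limma. The unadjusted p was under 0.05 for 4 of them, against 15.2% of all probe sets, and the median was -0.0071. Its smallest p-values were those of Igf1r, the signalling receptor for IGF1 and IGF2, at 0.85 ± 0.19 (adjusted p = 0.126), and Igf2bp3, which binds Igf2 mRNA, at 0.61 ± 0.14 (adjusted p = 0.137). Differences in the IGF list ran from -2.35 to 0.85, and 8 of the 15 were below 0.

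Around Impact, 1 of the 6 measured genes of the Gcn2 and stress response pathway fell and 0 rose. An unadjusted p under 0.05 was seen for 4, against 15.2% of all probe sets, and the median was -0.80. The gene that fell was Trib3, a pseudokinase gene induced by that response, which was at 7.59 and 7.42 in shRNA1 cells and 7.37 and 7.07 in shRNA2 cells, against 10.15 and 10.03 in empty-vector cells. The difference was -2.73 ± 0.15 (limma adjusted p = 0.0108), and the call was lost whichever shRNA array was dropped (adjusted p 0.0612 to 0.0893).

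Markers of several cell types differed between the groups in level beside these values. The mean level of the mast cell and basophil list (6 of 7 measured) was 10.28 to 10.77 on the shRNA arrays, against 11.08 and 11.91 on the empty-vector arrays, and 2 of its genes, Fcer1a and Mcpt2, fell. The rest of that list did not pass, with Tpsb2 at -0.97 ± 0.72, Ms4a2 at -0.73 ± 0.15, Mcpt8 at -0.41 ± 0.35 and Cpa3 at -0.11 ± 0.17. The megakaryocyte list (6 of 6 measured) averaged 9.09 to 10.11 on the shRNA arrays, against 10.85 and 10.65. The myeloid list (10 of 11 measured) averaged 10.68 to 10.94 on the shRNA arrays, against 9.33 and 9.89, and Mpo (5.34 ± 0.50) and Elane (4.98 ± 0.21) rose. Its median difference was 0.37. Its other genes did not pass, at 0.75 (Csf3r), 0.71 (Csf1r), 0.49 (Lyz2), 0.24 (Ptprc), 0.15 (Fcgr3), 0.13 (Spi1), 0.024 (Itgam) and -0.30 (Cebpa). The stem and progenitor list (6 of 7) averaged 8.02 to 8.31, against 8.65 and 8.45, and none of its genes passed. Kit differed by -1.61 ± 0.25 and Gata2 by -0.98 ± 0.23, while Cd34 differed by 0.84 ± 0.18. Stromal genes (10 of 10), in which Igf2, Dlk1 and Meg3 can be high, averaged 4.99 to 5.25, against 5.12 and 4.83, with 6 of the 10 in the dimmest 25% of probe sets. Of these 10 genes 7 had a negative difference, while Pdgfrb was higher on every shRNA array, by 2.08 ± 0.47, and did not pass (limma adjusted p = 0.133). Endothelial genes (5 of 5) averaged 5.25 to 5.47, against 5.47 and 5.34. B cell genes (3 of 4) averaged 4.52 to 4.69, against 4.73 and 4.60, and T cell genes (3 of 4) 4.77 to 5.14, against 5.01 and 5.07. The part of these cell types in the differences of Igf2r, Cdkn1c and Airn was not tested.

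The genes whose profile over the 6 arrays was most like that of a member were named for the 3 members spanning 1 log2 unit or more, by the root mean square difference of profiles centred on their mean, among 3064 genes spanning as much. For Igf2r on 1424112_at they were Ddx60 (0.055), Slc29a3 (0.074) and Elovl7 (0.074). For Cdkn1c they were Cited4 (0.14), Slc3a2 (0.15) and Adgrg1 (0.15), and for Grb10 on 1425458_a_at Ofd1 (0.15), Smad7 (0.26) and Rrp12 (0.27). With 6 arrays in 3 groups this likeness is a description.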

How the data were processed

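The authors deposited 1 intensity per probe set and array. It comes from RMA, per the submitters' processing notes, and the sources used here do not give its software, version or build. RMA corrects background, quantile-normalizes the arrays and summarises each probe set. The values are linear (array medians 100.2 to 104.9), so log2 was taken, with no pseudocount. Of 22690 probe sets, 64 controls were left out, and 20380 had 1 gene, 691 several and 1555 none in the platform annotation, which can be old. limma 3.58.1 (R 4.3.3) fitted the 3 groups in 1 model with 3 residual degrees of freedom, two-sided, with Benjamini-Hochberg adjustment over 22626 probe sets at 0.05. The fit was tested on simulated data. The number of arrays limits the precision.

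The members and lists were chosen with earlier results of these data known. Every member probe set was named. In each other list, the genes past the threshold, up to 4 in each direction, or the 2 with the smallest p, were named. A gene outside the members was read on its brightest probe set. The lists cover imprinted neighbours, other imprinted genes, imprint maintenance, the IGF system, the Gcn2 pathway and cell type markers. The fits were repeated under 13 other settings (filters on dim probe sets, 1 probe set per gene, 2 normalizations, an intensity trend, a replicate block, each array left out), and averaging a gene's probe sets was added after the data had been seen. Replicate numbers in the titles give 2 pairs at most, which does not establish pairing. No batch is recorded.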

Additional observations from a re-analysis of the deposited data

How the results depend on the processing

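Leaving out 1 array moved the counts most, and leaving out an empty-vector array leaves a lone control that is assumed to vary like the other groups. The 191 probe sets past the threshold for both shRNAs became 555 or 5589 when empty-vector replicate 1 or 2 was dropped, 8 or 4 when shRNA1 replicate 1 or 2 was, and 0 when either shRNA2 array was (0 to 5589 in all), and 104 with the dimmer 50% left out. The shRNA1 count of 11 became 29 with 1 probe set per gene, 24 with the mean of a gene's probe sets, 33 with an intensity trend and 6 with the dimmer 50% left out (0 to 4560 with an array left out). The shRNA2 count of 331 became 205 with the dimmer 50% left out and 0 to 5174 with an array left out. Between the shRNAs 0 to 1 passed. Among the members, only Igf2r probe sets gained a call with an array left out, and only when an empty-vector array was dropped. Dropping either of these also raised the counts over all probe sets, so such a call says little about Igf2r. The shRNA2 difference then ran from -2.03 to -1.23 on 1424111_at and from -1.32 to -0.29 on 1424112_at, over all arrays left out. With the mean of a gene's probe sets 1 member, Igf2r, passed for both shRNAs and for shRNA2, against 1.86% and 2.7% of all genes.

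With the replicate block, Igf2r 1424111_at passed for both shRNAs (adjusted p = 0.0483) and for shRNA2 (adjusted p = 0.0395), so 1 member was called in each, and 246, 0 and 361 probe sets passed for both shRNAs, shRNA1 and shRNA2. Deviations from the group means correlated between same-numbered arrays at 0.167 (shRNA1 and empty vector), 0.129 (shRNA2 and empty vector) and 0.615 (shRNA1 and shRNA2), and 2 numbers do not establish a pairing.

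Signs turned for differences of both shRNAs between -0.10 and 0.20, and for 2 differences of a single shRNA. With quantile normalization Peg3 1417355_at became 0.017, Peg3 1433924_at 0.040 and Meg3 1436057_at 0.0030, and the mean of the Igf2 probe sets was -0.053. With an array left out, both shRNAs against the empty vector ran from -0.070 to 0.12 for Dlk1, -0.30 to 0.20 for Grb10 1425457_a_at, -0.070 to 0.46 for Impact, -0.40 to 0.20 for Plagl1 1426208_x_at, -0.16 to 0.12 for Peg3 1417355_at and -0.11 to 0.11 for Peg3 1433924_at. For Meg3 the ranges were -0.27 to 0.11 (1426758_s_at), -0.18 to 0.13 (1436057_at), -0.093 to 0.25 (1436713_s_at), -0.39 to 0.19 (1439380_x_at) and -0.19 to 0.10 (1452183_a_at). The shRNA2 difference of Grb10 1425458_a_at (-0.15) ran from -0.68 to 0.38 and the shRNA1 difference of Igf2r 1424112_at (-0.26) from -0.77 to 0.26. The cause was not tested. The alternatives gave 552 values of single probe sets or of a gene's averaged probe sets. Of these 490 kept direction and side of the threshold, 28 turned sign, 18 gained and 16 lost a call. Dim member probe sets have no value where a filter left them out. Depth is not a measure on arrays, and 15 of the 20 members lay in the dimmer 50%, where differences are compressed.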
